A study of Mus musculus with 2 samples.

Results

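The miR-130/miR-301 family is a group of microRNAs (miRNAs) that share one seed, the stretch at bases 2 to 8 through which a miRNA recognises its target mRNAs. It was measured by small RNA sequencing in mouse helper T cells grown under conditions that induce Th17 cells, which make interleukin-17, and in control Th0 cells. Its 4 members, miR-130a-3p, miR-130b-3p, miR-301a-3p and miR-301b-3p, were taken by name, and all 4 were listed in both libraries, among 1125 miRNAs listed in at least 1 of them. Naive CD4+CD62L+ T cells from spleens of female C57BL/6 mice, of an age the labels do not state, were the starting cells of both cultures, and the medium contained 10% serum. Th17 cells received 4 cytokines, IL-6 and IL-23 (40 ng/ml of each), IL-1β (10 ng/ml) and TGF-β (2 ng/ml), for 6 to 7 days, and also anti-CD28 (1 µg/ml) and blocking antibodies against IL-2, IL-12, IFN-γ and IL-4 (5 µg/ml of each). Th0 cells received the anti-CD28 (1 µg/ml) and the antibodies against IFN-γ and IL-4 (5 µg/ml of each) only. The labels do not state how long the Th0 cells were cultured, so culture time and the Th17 conditions cannot be told apart. All ratios below are therefore ratios between 2 cultured populations, 1 library each.

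A miRNA hairpin yields a 5p and a 3p strand, and in this family the 3p strand carries the shared seed. miR-301a is known in mouse CD4+ T cells to promote Th17 differentiation by repressing Pias3, an inhibitor of STAT3, the transcription factor that acts downstream of IL-6 and IL-23. In mouse CD8+ T cells the family is known to be induced by activation and to target Cd69, an early activation marker that holds lymphocytes in tissue.

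The mature 3p sequences of the family are shown first because the seed defines it, with bases 2 to 8 in capitals (RefSeq, GRCm38.p6). Of the 4 members, 3 matched an entry of the sequence table (all but miR-301b-3p), as did all 4 of their 5p strands.
miR-130b-3p: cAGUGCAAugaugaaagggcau
miR-301a-3p: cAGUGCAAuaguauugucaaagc
miR-130a-3p: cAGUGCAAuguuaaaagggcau
miR-130a-3p and miR-130b-3p differed at 2 of 22 bases, U11A and A13G, counted from 1 at the 5′ end with the base of miR-130a-3p first. miR-130a-3p and miR-301a-3p were identical over their first 9 bases and differed at 10 of the 22 bases compared without gaps. How many mismatches were allowed, and how reads matching both members of such a pair were assigned, is not stated in these sources, so the division of reads between miR-130a-3p and miR-130b-3p is uncertain to that extent. The same limit holds for miR-301a-3p and miR-301b-3p, which are also close paralogs.

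The 5p strands fell into different seed groups, shown because their reads are used below as a second readout of each hairpin.
miR-130b-5p: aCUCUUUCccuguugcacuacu
miR-130a-5p: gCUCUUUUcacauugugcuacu
miR-301a-5p: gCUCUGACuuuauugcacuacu
miR-301b-5p: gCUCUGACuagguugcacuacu
Bases 2 to 8 are in capitals. miR-301a-5p and miR-301b-5p shared the seed CUCUGAC, while the 5p strands of the miR-130 hairpins had a seed each. The Mir130b hairpin, the one with many reads from both strands, is shown with its 5p strand (bases 13 to 34) and its 3p strand (bases 51 to 72) in capitals.
Mir130b hairpin, chr16:17124061-17124142, minus strand: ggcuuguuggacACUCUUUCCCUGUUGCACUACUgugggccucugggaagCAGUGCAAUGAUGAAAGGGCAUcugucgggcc

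The seed AGUGCAA was found at bases 2 to 8 of 7 of the 1679 mature mouse miRNAs in the RefSeq table (0.417%). Besides the members these were miR-721, miR-6341, miR-6389 and miR-130c, shown because they would add to the same seed pool if they were expressed.
miR-721: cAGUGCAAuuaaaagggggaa
miR-6341: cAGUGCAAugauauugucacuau
miR-6389: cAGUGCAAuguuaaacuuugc
miR-130c: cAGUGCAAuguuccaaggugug
None of the 4 was listed in the Th17 or the Th0 table. If the authors' annotation held them, 0 reads allow a level of up to 0.251 CPM (reads per 1000000 listed reads) in Th17 and 0.359 CPM in Th0, taking 3 reads as the limit and counting error only. RefSeq gave a sequence for 935 of the 1125 listed miRNAs. The others, miR-301b-3p among them, were not searched for the seed.

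The members come from 3 chromosomal loci, in GRCm38, the assembly named mm10 in the submitters' processing notes. Mir130b (chr16:17124061-17124142) and Mir301b (chr16:17124400-17124496) lie 257 bases apart on the minus strand, both within an intron of the gene model 2610318N02Rik on the same strand. Mir301, the gene of miR-301a, lies on the plus strand at chr11:87113004-87113089, within an intron of Ska2, which encodes a subunit of the spindle and kinetochore complex. Mir130a lies on the minus strand at chr2:84741115-84741178 and overlaps no other annotated gene.

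The Th17 library held 11975371 listed reads and the Th0 library 8358010, and each read count was divided by the total of its own library to give CPM. The labels speak of triplicates, but the tables hold 1 column of reads per group, and whether a column stands for 1 culture or several pooled is not stated there. With 1 library per group there is no replicate check and no test of the conditions. Every interval below is an exact 95% interval (Clopper-Pearson) of counting error within these 2 libraries, and reads amplified by PCR without molecular identifiers are not independent molecules. Of the T cell miRNAs checked, all 6 were present in both libraries, and their summed level was 136717 CPM in Th17 and 102303 CPM in Th0. They did not all go the same way: miR-142a-3p was at 1153 CPM in Th17 and 2194 CPM in Th0, and miR-342-3p at 3536 CPM in Th17 and 6349 CPM in Th0, while the other 4 were higher in Th17.

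The family as a whole was lower in the Th17 library. Its summed 3p reads were 37457 in Th17 and 37666 in Th0, which on the different totals is 3128 CPM in Th17 and 4507 CPM in Th0. The sum made up 0.313% of the listed reads in Th17 (interval 0.310 to 0.316%) and 0.451% in Th0 (0.446 to 0.455%), and it was 1.44-fold lower in Th17 (1.42 to 1.46). miR-130b-3p carried most of that difference. Without it the sum was 1493 CPM in Th17 and 1713 CPM in Th0, 1.15-fold lower (1.12 to 1.17). In bulk libraries, fewer cells with a miRNA and less of it per cell cannot be told apart.

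**Figure D1:**
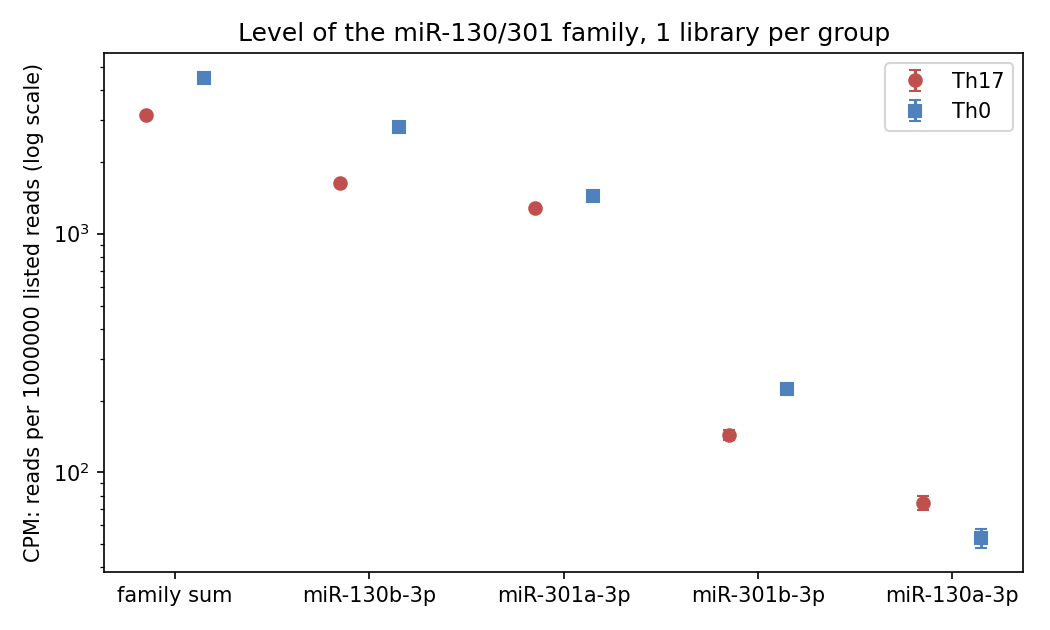
Level of the family sum and of each member in CPM (log scale) in the Th17 library (circles) and the Th0 library (squares), with 95% counting intervals, mostly smaller than the symbols. The sum and 3 members were lower in Th17, and miR-130a-3p, the least abundant, was higher, at 74.6 CPM in Th17 and 52.9 CPM in Th0.

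The 4 members differed in direction and size. miR-130b-3p, the most abundant member, had 19576 reads in Th17 and 23347 in Th0, or 1635 CPM in Th17 and 2793 CPM in Th0, and was 1.71-fold lower in Th17 (1.68 to 1.74). It was the 53rd most abundant miRNA in Th17 and the 39th in Th0. miR-301b-3p, encoded beside it, had 1711 reads in Th17 and 1869 in Th0, or 143 CPM in Th17 and 224 CPM in Th0, and was 1.57-fold lower (1.46 to 1.67). Both members of the chromosome 16 pair thus had a lower level in Th17 by a similar factor. miR-301a-3p, the member with a published role in Th17 cells, had 15277 reads in Th17 and 12008 in Th0, or 1276 CPM in Th17 and 1437 CPM in Th0, and was 1.13-fold lower (1.10 to 1.15). It held rank 60 in both libraries.

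miR-130a-3p was the one member with a higher level in Th17. It had 893 reads in Th17 and 442 in Th0, or 74.6 CPM in Th17 and 52.9 CPM in Th0, a ratio of 1.41 (1.26 to 1.58). miR-130a is known in human endothelial cells, where it represses the homeobox genes GAX and HOXA5. Of the miRNAs that mark other cell types, both strands of miR-126a, found in endothelial cells and megakaryocytes and listed in each library, summed to 85.9 CPM in Th17 and 191 CPM in Th0, opposite in direction to miR-130a-3p. The 4 stromal miRNAs checked (miR-143-3p, miR-145a-5p, miR-199a-3p and miR-214-3p), also all listed in each library, summed to 19.6 CPM in Th17 and 2.15 CPM in Th0, the same direction as miR-130a-3p. The stromal sum in Th0 rested on few reads: 10 of miR-199a-3p, 6 of miR-143-3p, and 1 each of miR-214-3p and miR-145a-5p. miR-145a-5p had 1 read in each library, too few to give a direction. The part of the stromal miRNAs and of miR-126a in the level of miR-130a-3p was not tested.

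Other cell type markers had few reads next to the T cell miRNAs. The epithelial ones were still above miR-301b-3p and miR-130a-3p in summed level in both libraries. The myeloid miR-223-3p was at 6.76 CPM in Th17 and 3.35 CPM in Th0. The erythroid miR-451a and miR-144-3p summed to 2.17 CPM in Th17 and 0.718 CPM in Th0, with miR-144-3p at 0 reads in Th0. The 5 epithelial miRNAs of the miR-200 family summed to 208 CPM in Th17 and 387 CPM in Th0, the same direction as the family sum. miR-200b-3p, at 37.3 CPM in Th17 and 141 CPM in Th0, made up most of that difference, and miR-200c-3p went the other way, at 31.7 CPM in Th17 and 23.1 CPM in Th0. The part of these miRNAs in the family sum was not tested.

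Set against all miRNAs, the members' ratios were of ordinary size. Of the 298 miRNAs whose CPM averaged 10 or more over both libraries, 25.5% were at least 1.5-fold lower in Th17 and 16.8% at least 1.5-fold higher. Of the 4 members, all above that minimum, 2 were at least 1.5-fold lower (miR-130b-3p and miR-301b-3p) and 0 at least 1.5-fold higher. miR-301b-3p lay near that limit: its interval (1.46 to 1.67) included 1.5, and with DESeq2 size factors it was 1.48-fold lower. No member reached 2-fold, a size that 13.1% of the 298 reached on the lower side and 6.71% on the higher side. Counting intervals lay wholly below a ratio of 1 for 47.7% of the 298 and for 3 of the 4 members, and wholly above it for 40.6% of the 298 and for miR-130a-3p.

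The median log2 ratio was -0.41 over the members and -0.08 over the 298 miRNAs, whose interquartile range was -0.61 to 0.38. The log2 ratio of miR-130b-3p was -0.77, and 60 of the 298 had a lower one. That of miR-301b-3p was -0.65, with 67 below it. The log2 ratio of miR-301a-3p was -0.17, near the middle, with 131 miRNAs below it. miR-130a-3p, at 0.50, had 239 below it. The chromosome 16 pair thus lay just outside the interquartile range on the lower side, and miR-130a-3p just outside it on the higher side.

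**Figure D2:**
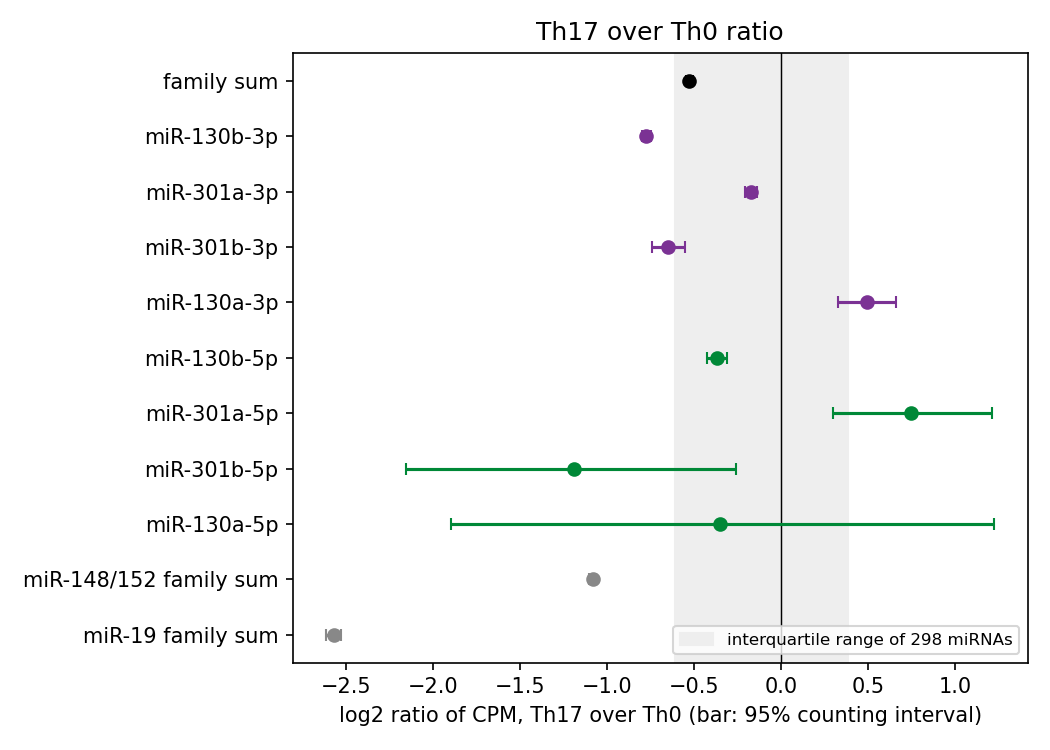
Log2 ratio of CPM in Th17 over Th0 with 95% counting intervals for the family sum (black), the members (purple), the 5p strands of their hairpins (green) and the sums of the families with overlapping seeds (grey), with the interquartile range of the 298 miRNAs at 10 CPM or more shaded. miR-130b-3p (-0.77) and miR-130a-3p (0.50) lie on opposite sides of 0, and the miR-19 family sum (-2.57) lies far below the miR-130/miR-301 sum (-0.53).

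**Figure D3:**
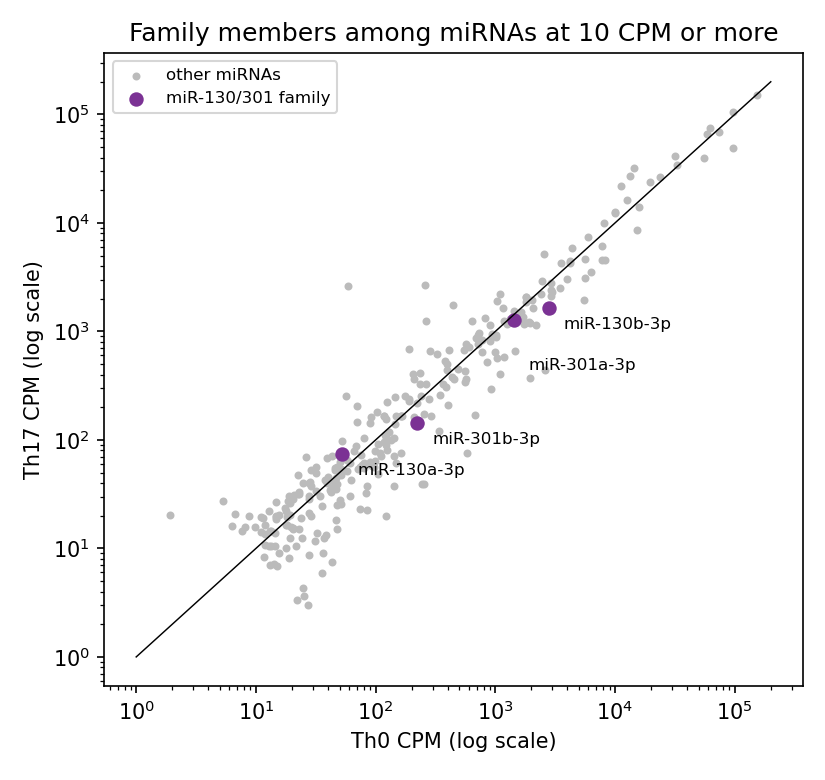
CPM in the Th17 library against CPM in the Th0 library, both on log scales, for miRNAs averaging 10 CPM or more, with the line of equal level. miR-130b-3p and miR-301b-3p lie below the line, miR-301a-3p close to it and miR-130a-3p above it, all within the cloud of other miRNAs.

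In Th17 the family had a larger share of miR-301a-3p and a smaller share of miR-130b-3p than in Th0. A share within the family does not depend on how the libraries are scaled to each other. miR-130b-3p made up 52.3% of the family's 3p reads in Th17 (51.8 to 52.8%) and 62.0% in Th0 (61.5 to 62.5%). miR-301a-3p made up 40.8% in Th17 (40.3 to 41.3%) and 31.9% in Th0 (31.4 to 32.4%). miR-301b-3p made up 4.57% in Th17 (4.36 to 4.78%) and 4.96% in Th0 (4.74 to 5.19%), and these intervals overlap. The share of miR-130a-3p was 2.38% in Th17 (2.23 to 2.54%) and 1.17% in Th0 (1.07 to 1.29%). The order of the members, miR-130b-3p, miR-301a-3p, miR-301b-3p and miR-130a-3p from most to least abundant, was the same in both libraries, and no neighbours in that order had overlapping counting intervals, while their spread between cultures is not known.

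Within-library ratios were compared for all 6 pairs of members, and the neighbours on chromosome 16 differed least. There were 0.0874 reads of miR-301b-3p per read of miR-130b-3p in Th17 and 0.0801 in Th0, 1.09-fold higher in Th17 (1.02 to 1.17). The ratio of miR-301a-3p to miR-130b-3p was 0.780 in Th17 and 0.514 in Th0, 1.52-fold higher (1.47 to 1.56). miR-301a-3p over miR-301b-3p, close paralogs on different chromosomes whose reads may not be fully separated, was 8.93 in Th17 and 6.42 in Th0, 1.39-fold higher (1.30 to 1.49). The largest difference among the 6 was that of miR-130a-3p over miR-130b-3p, 0.0456 in Th17 and 0.0189 in Th0, or 2.41-fold higher (2.14 to 2.71). miR-130a-3p was also 2.21-fold higher relative to miR-301b-3p (1.93 to 2.52) and 1.59-fold higher relative to miR-301a-3p (1.41 to 1.79). Members of different loci thus differed from each other by more than the pair that shares a locus did, on counting error in these 2 libraries.

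The 5p strands gave a second readout of the same hairpins. miR-130b-5p had 5213 reads in Th17 and 4693 in Th0, or 435 CPM in Th17 and 561 CPM in Th0, and was 1.29-fold lower in Th17 (1.24 to 1.34), a smaller difference than that of its 3p partner. miR-301a-5p had 142 reads in Th17 and 59 in Th0, or 11.9 CPM in Th17 and 7.06 CPM in Th0, a ratio of 1.68 (1.23 to 2.32), against the lower level of miR-301a-3p. miR-301b-5p had 17 reads in Th17 and 27 in Th0, a ratio of 0.439 (0.225 to 0.836). miR-130a-5p had 9 reads in Th17 and 8 in Th0, too few to give a direction (ratio 0.785, interval 0.269 to 2.34).

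Mir130b was the hairpin of the family with appreciable use of both strands. Its 3p strand supplied 79.0% of its reads in Th17 (78.5 to 79.5%) and 83.3% in Th0 (82.8 to 83.7%), a difference of -4.29 percentage points. For Mir301 the 3p share was 99.1% in Th17 (98.9 to 99.2%) and 99.5% in Th0 (99.4 to 99.6%). The ratio of 5p to 3p reads was 1.32-fold higher in Th17 for Mir130b (1.27 to 1.38). For Mir301 it was 1.89-fold higher (1.39 to 2.61), on 142 miR-301a-5p reads in Th17 and 59 in Th0. The 3p share of Mir301 differed by -0.43 percentage points, and fold differences of this kind were not computed for other hairpins of the libraries. For Mir301b the 3p share was 99.0% in Th17 (98.4 to 99.4%) and 98.6% in Th0 (97.9 to 99.1%), and for Mir130a it was 99.0% in Th17 (98.1 to 99.5%) and 98.2% in Th0 (96.5 to 99.2%), with overlapping intervals in both cases. A background was taken from hairpins with both strands listed under the same single hairpin entry. Over 147 of these with at least 100 reads in each library, both strands together, the median difference was 0.515 percentage points in either direction. Of these, 26 (17.7%) had a difference at least as large as that of Mir130b. Hairpins with nearly all reads from 1 strand, such as Mir301b, also met this minimum.

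**Figure D4:**
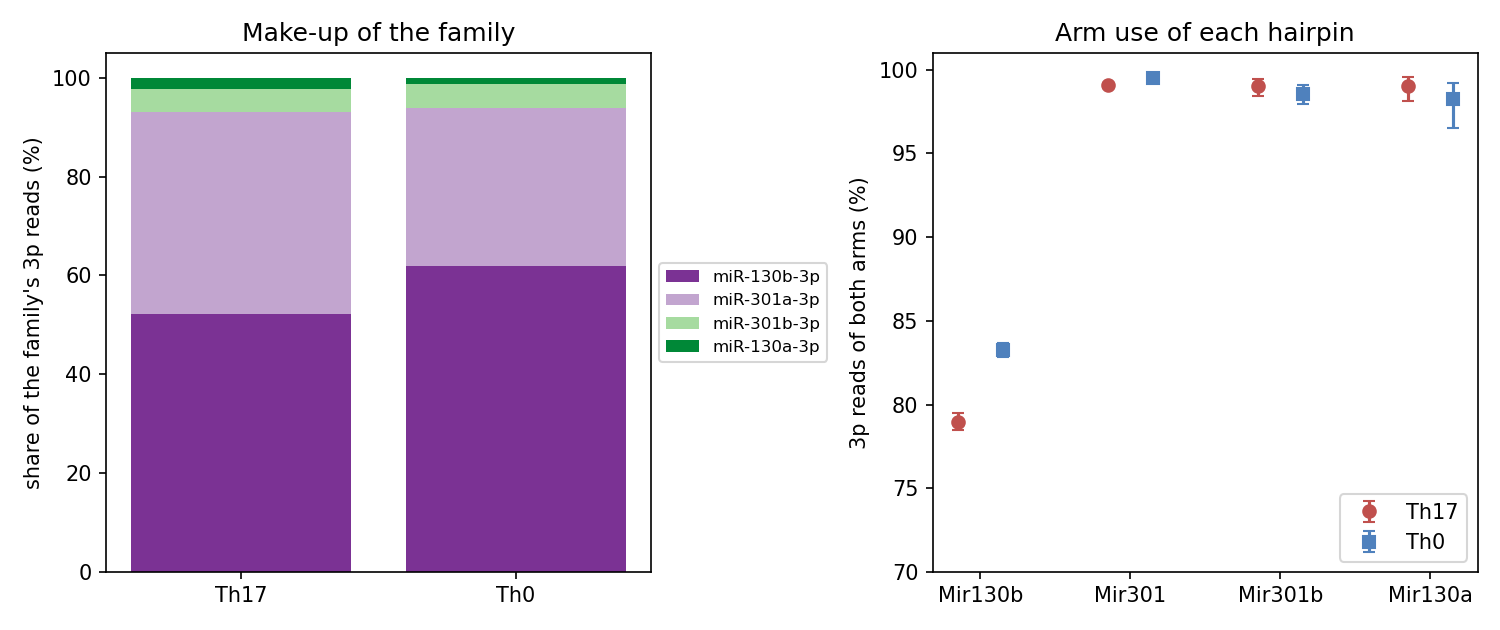
Left, share of each member in the family's 3p reads (%) in the Th17 and the Th0 library. Right, share of 3p reads among both strands of each hairpin (%, on an axis that does not start at 0) with 95% counting intervals. miR-301a-3p takes 40.8% of the family in Th17 and 31.9% in Th0, and Mir130b is the hairpin with a 3p share well under the others, at 79.0% in Th17 and 83.3% in Th0.

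A pair of families have seeds that overlap this one by all but one base, and they are shown to place the family among them, with bases 2 to 8 in capitals.
miR-19b-3p: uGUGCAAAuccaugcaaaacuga
miR-19a-3p: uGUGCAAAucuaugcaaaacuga
miR-148a-3p: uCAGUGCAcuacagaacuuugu
miR-148b-3p: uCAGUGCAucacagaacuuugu
miR-152-3p: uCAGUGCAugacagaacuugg
The miR-19 family has members in the Mir17 cluster, which is known to drive lymphocyte proliferation, and its reads were not divided by locus. It summed to 485 CPM in Th17 and 2878 CPM in Th0, 5.94-fold lower in Th17 (5.77 to 6.11). The miR-148/miR-152 family summed to 3255 CPM in Th17 and 6887 CPM in Th0, 2.12-fold lower (2.09 to 2.14). The miR-130/miR-301 sum was thus lower by less than either. There were 6.45 reads of the miR-130/miR-301 family per read of the miR-19 family in Th17 and 1.57 in Th0, 4.12-fold higher in Th17 (3.99 to 4.26). Per read of the miR-148/miR-152 family there were 0.961 in Th17 and 0.654 in Th0, 1.47-fold higher (1.44 to 1.497). Members of the miR-148/miR-152 family also differed from each other, with miR-148a-3p at 1954 CPM in Th17 and 5542 CPM in Th0, and miR-148b-3p at 1298 CPM in Th17 and 1328 CPM in Th0.

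The miRNAs with the most similar levels were found by the distance between log2 CPM values in the 2 libraries, taking 2 for each member. Nearest to miR-130b-3p were miR-15b-5p, at 1536 CPM in Th17 and 2745 CPM in Th0 (distance 0.093), and miR-423-5p (0.39). Nearest to miR-301a-3p were miR-5099 (0.096) and miR-148b-3p (0.12), and nearest to miR-301b-3p were miR-139-5p, at 144 CPM in Th17 and 233 CPM in Th0 (0.057), and miR-374b-5p (0.21). For miR-130a-3p they were miR-700-5p, at 71.5 CPM in Th17 and 52.9 CPM in Th0 (0.061), and miR-378a-5p (0.23). With 2 libraries this says only that the levels were close.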

How the data were processed

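Total RNA of Th17 and Th0 cultures was made into TruSeq small RNA libraries and sequenced on an Illumina HiSeq, per the labels' protocols. The authors deposited, for each library, whole-number read counts per mature miRNA and a TPM value. Tested on the files, the deposited TPM is the count divided by one total per library, 13070648 reads for Th17 and 9072995 for Th0, of which the listed counts are 91.6% for Th17 and 92.1% for Th0. The submitters' processing notes name mm10 as genome build. The trimmer, the aligner, the miRNA annotation and the handling of multiply matching reads are not stated in these sources.

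The tables were joined by miRNA name, a miRNA missing from one counting as 0 reads there (smallest listed count 1). Counts were divided by the column sum of each table, and no value was added before ratios were taken. Ratio intervals are exact, given the total of the pair of counts, and intervals for changes of within-library ratios are exact conditional odds ratio intervals (SciPy 1.17.1). The interval procedure was tested on simulated counts with counting error only, the error that it assumes. That test does not cover PCR copies or spread between cultures. With 1 library per group no test was run. Alternatives were TMM factors (edgeR 4.0.16 in R 4.3.3), DESeq2 1.42.0 size factors, a total without the 10 most abundant miRNAs, the deposited TPM, 0.5 CPM added, and other minimum levels. Positions are from GENCODE M21 and sequences from RefSeq. The named miRNAs are the members, the 5p strands of their hairpins, and every RefSeq miRNA with the same seed. They also include the miR-19 and miR-148/miR-152 families, cell type markers, and the 2 nearest non-members of each member averaging 10 CPM or more. The members and lists were chosen with earlier results of these data known.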

Additional observations from a re-analysis of the deposited data

How the results depend on the processing

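No ratio of the family sum or of a member changed direction under any alternative. Each change of scaling multiplied all ratios by the same factor. Only miR-301a-3p was near equal level, so for the other ratios the kept direction says little. TMM factors, the deposited TPM and 0.5 CPM added left the sum and the members within their counting intervals. DESeq2 size factors gave ratios of Th17 over Th0 of 0.733 for the sum, 0.618 for miR-130b-3p and 0.937 for miR-301a-3p. They also put miR-301b-3p under 1.5-fold (1.48-fold lower). Leaving the 10 most abundant miRNAs out of the total gave 0.634 for the sum, 0.535 for miR-130b-3p, 0.811 for miR-301a-3p and 0.584 for miR-301b-3p, with the median log2 ratio of the 298 miRNAs at -0.21 in place of -0.08. Without miR-130b-3p the ratio of the sum was 0.872. The ratio of miR-130a-3p ran from 1.29 to 1.49 over all alternatives. Adding every listed miRNA with the seed, and dropping the minimum on strand reads, could change no value. No further listed miRNA with a RefSeq sequence had the seed, and every member hairpin already met the minimum.

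With no minimum level, 266 miRNAs were at least 1.5-fold higher in Th17 and 356 lower, and 191 at least 2-fold higher and 265 lower, of 1125. At a mean of at least 100 CPM these counts were 27 higher and 36 lower at 1.5-fold, and 13 higher and 15 lower at 2-fold, of 158. Other numbers of miRNAs entered at each minimum, but with no minimum the shares were also larger than at a mean of at least 10 CPM. At 10 CPM, 16.8% were at least 1.5-fold higher and 25.5% lower. At 2-fold these shares were 6.71% higher and 13.1% lower. Why the shares differed was not tested. Depth limits miR-130a-5p and miR-301b-5p, at under 30 reads per library. No paired analysis was possible because each group has 1 library. For the same reason no replicate could be left out.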
